A study of Drosophila melanogaster with 2 samples.

Results

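The microRNAs (miRNAs) miR-1000 and miR-284 of Drosophila melanogaster were followed in fly heads after a sedating exposure to ethanol vapour. Members were all listed mature products of the hairpins mir-1000 and mir-284, which gave 4 of the 240 known mature sequences listed in either library: the 5p and the 3p arm of each hairpin. All 4 were listed in both libraries and all 4 passed the minimum of 100 reads over both libraries. The flies were adult females of the wild-type strain Canton-S, 3 to 5 days old, and their heads gave the small RNA that was sequenced. The control library came from flies in an air stream without ethanol for 45 minutes. The ethanol library came from flies given ethanol vapour for 15 minutes, by when all were sedated, and then 30 minutes of air without ethanol. Each library was a pool of about 180 flies, and there was 1 library per group, so no difference below has a replicate check and no p-value was computed. Differences between the libraries cannot be told apart from differences between the treatments.

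A miRNA is cut from a hairpin precursor, and 1 arm of the resulting duplex is usually kept in an Argonaute protein, where its seed (bases 2 to 8) guides it to messenger RNAs whose output it lowers. In the fly, miR-1000 is known to limit the vesicular glutamate transporter VGlut on the sending side of the synapse, and loss of miR-1000 is known to cause death of neurons in the adult brain through excess glutamate. miR-284 is known in the fly to lower the glutamate receptor subunits GluRIIA and GluRIIB on the receiving side, at the larval neuromuscular junction, where motor neurons use glutamate. Messenger RNAs and proteins were not measured in these libraries, so nothing below bears on these targets.

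The mature sequences are shown because the arms of each hairpin carry different seeds and base contents, both described below. They are those of the deposited tables, written with T for U, with the seed in capitals.
dme-miR-1000-5p: aTATTGTCctgtcacagcagt
dme-miR-1000-3p: cTGCTGGGtcggggcattaaca
dme-miR-284-5p: cCTGGAATtaagttgactgtgtagcc
dme-miR-284-3p: tGAAGTCAgcaacttgattccagcaattg
dme-miR-1005-3p: tCTGGAATctttaattcgcag
The first 4 are the products of mir-1000 and mir-284. The last, a product of the hairpin mir-1005, is shown because it was the only other listed product with a seed of one of the 4, namely that of miR-284-5p. It was counted 80 times in control flies and 107 times in ethanol flies, an ethanol over control ratio of 1.39 (1.03 to 1.89). No listed product shared a seed with miR-1000-5p, miR-1000-3p or miR-284-3p, and none of the 99 candidate miRNAs named by the authors overlapped any of the 4 sequences.

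The mir-284 products were unusually long among the listed products. miR-284-3p, with 29 bases, was the longest of the 240, and miR-284-5p, with 26, was exceeded by it alone. The mir-1000 products had 21 (5p) and 22 (3p) bases, the latter being the commonest length. The Ensembl annotation of assembly BDGP6, which is later than the submitters' build, gives the same lengths for miR-1000-5p, miR-1000-3p and miR-284-5p but 21 bases for miR-284-3p. The handling of reads shorter than the listed sequence is not stated, so the count of miR-284-3p may depend on it. The arms of mir-1000 were predicted to form 16 base pairs with each other (-21.7 kcal/mol). With the listed 29 bases of miR-284-3p, the arms of mir-284 formed 17 (-23.5 kcal/mol). The duplexes of the listed sequences were thus of similar predicted strength, and the 21-base form of miR-284-3p was not folded.

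Both hairpins lie on the minus strand of chromosome arm 3R in the BDGP6 annotation. The gene mir-1000 (FBgn0262319) lies in an exon of the long noncoding RNA lncRNA:CR45910, whose synonym in RefSeq is pri-mir-1000, and on the opposite strand of introns of msi, which encodes the RNA-binding protein Musashi. The gene mir-284 (FBgn0262383) lies on the same strand as Octbeta2R, a receptor for the insect neurotransmitter octopamine, inside a 3′ UTR exon of 2 of its 6 annotated transcripts; the other 4 transcripts do not span the hairpin. Positions are not given because the submitters' notes name build BDGP5.

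The libraries were of similar depth. The control library had 17337082 reads in all, of which 13692046 were assigned to 233 known mature sequences, and the ethanol library 17600983, of which 13128478 were assigned to 228. Levels are given as reads per 1000000 of these known miRNA reads (CPM). All intervals are 95% intervals and cover counting error only, with reads taken as independent. Reads amplified by PCR are not independent molecules, so the intervals may be too narrow even for that error. The defining neuronal miRNA, miR-124, was abundant in both libraries, at a summed 8150 CPM in the control and 4225 CPM in the ethanol library. Its presence was not a test that the RNA came from heads. The muscle miRNAs miR-1 and miR-133 summed to 313766 and 301679 CPM, the gut miRNA miR-281 to 134 and 140 CPM, and the fat body miRNAs miR-33 and miR-278 to 20752 and 18049 CPM. Most of the fat body sum was miR-33-5p (19995 and 17423 CPM). The early embryo list summed to 183 and 143 CPM, with 5 of its 6 hairpins listed, but miR-5-5p alone gave 179 and 136 CPM. The gonad list summed to 7.67 and 11.4 CPM. In RNA from whole heads, fewer cells of a type and less RNA per cell cannot be told apart.

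miR-284-5p was the most abundant of the 4 products and its level hardly differed between the libraries. It had 12481 reads in the control (12263 to 12702), which is 912 CPM (896 to 928) and rank 42 of 233. In the ethanol library it had 11942 reads (11729 to 12158), which is 910 CPM (893 to 926) and rank 43 of 228. The CPM intervals overlap almost wholly, while those of the unscaled reads do not overlap.

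miR-1000-5p, the abundant arm of its hairpin, was higher in the ethanol library. It had 5720 reads in the control (5573 to 5870), which is 418 CPM (407 to 429) and rank 58. It had 9164 reads in the ethanol library (8977 to 9354), which is 698 CPM (684 to 712) and rank 52. The intervals do not overlap.

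The rarer arms lay far below. miR-284-3p had 975 control reads, or 71.2 CPM (66.8 to 75.8), and 1064 ethanol reads, or 81.0 CPM (76.2 to 86.1), at ranks 95 and 93. miR-1000-3p had 282 control reads, or 20.6 CPM (18.3 to 23.1), and 149 ethanol reads, or 11.3 CPM (9.60 to 13.3), at ranks 121 and 134. It was the only one of the 4 whose interval lay wholly lower in the ethanol library. The order of levels was the same in both libraries: miR-284-5p, miR-1000-5p, miR-284-3p, miR-1000-3p, with no overlap between neighbours within a library. Capture of small RNAs by ligation depends on their sequence, so levels of different products are compared less surely than levels of 1 product between libraries.

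**Figure D1:**
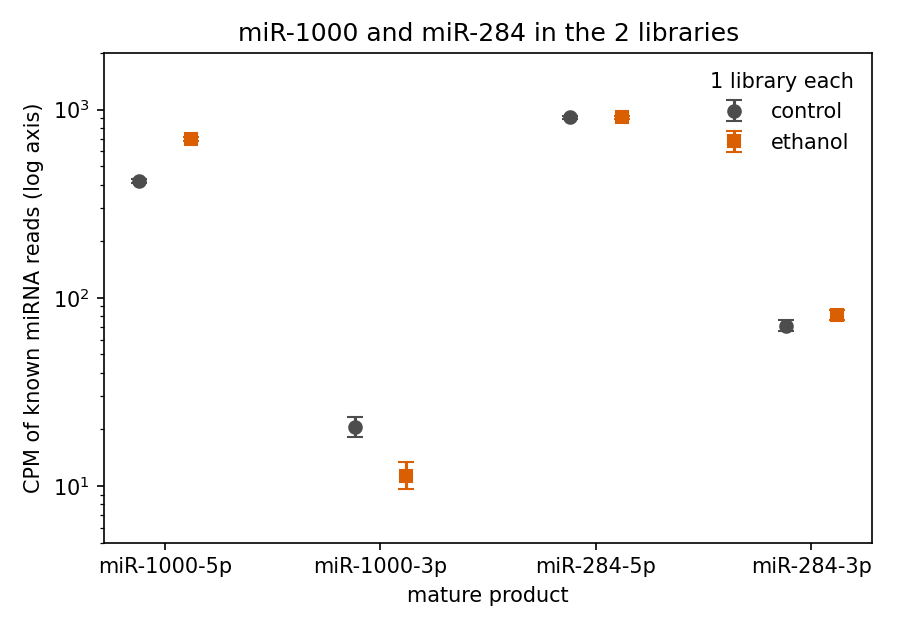
Level of each mature product (y axis, CPM of known miRNA reads, log axis) in the control and the ethanol library, 1 library each, with 95% counting intervals. miR-1000-5p stands at 418 CPM in the control and 698 CPM in the ethanol library, miR-1000-3p at 20.6 and 11.3 CPM, and the miR-284 products nearly level.

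The comparison of ethanol with control asked whether the level of each product differed after the exposure. miR-1000-5p was 1.67-fold higher in the ethanol library (1.62 to 1.73). miR-1000-3p, from the same hairpin, was 1.81-fold lower (1.48 to 2.23). The ratio was 0.998 for miR-284-5p (0.97 to 1.02). It was 1.14 for miR-284-3p (1.04 to 1.24). None of the 4 reached 2-fold, which 6 of the 168 products compared did (3.57%), 4 of them higher (2.38%) and 2 lower (1.19%). Both mir-1000 products and neither mir-284 product differed at least 1.5-fold, which 39 of the 168 did (23.2%).

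Among the 168 ratios, that of miR-1000-5p was the 14th from the highest and that of miR-1000-3p the 6th from the lowest, while miR-284-3p was the 58th from the highest and miR-284-5p the 83rd. Over products with at least 10000 reads, the depth class of miR-1000-5p and miR-284-5p, the middle 50% of the log2 ratios lay between -0.27 and 0.28 (58 products), and 5 of them, miR-1000-5p included, had a ratio as high as that of miR-1000-5p or higher. Over products with 100 to 1000 reads, the class of miR-1000-3p, the middle 50% lay between -0.31 and 0.38 (61 products), and 4 of them, miR-1000-3p included, had a ratio as low or lower. Over products with 1000 to 10000 reads, the class of miR-284-3p, the middle 50% lay between -0.29 and 0.23 (49 products). Both mir-1000 products thus lay in the outer parts of the spread at their own depth and both mir-284 products in its middle. The counting interval lay above 1 for 36.9% of the 168 products and below 1 for 38.1%, so an interval that excludes 1, as for 3 of the 4 products here, was common.

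**Figure D2:**
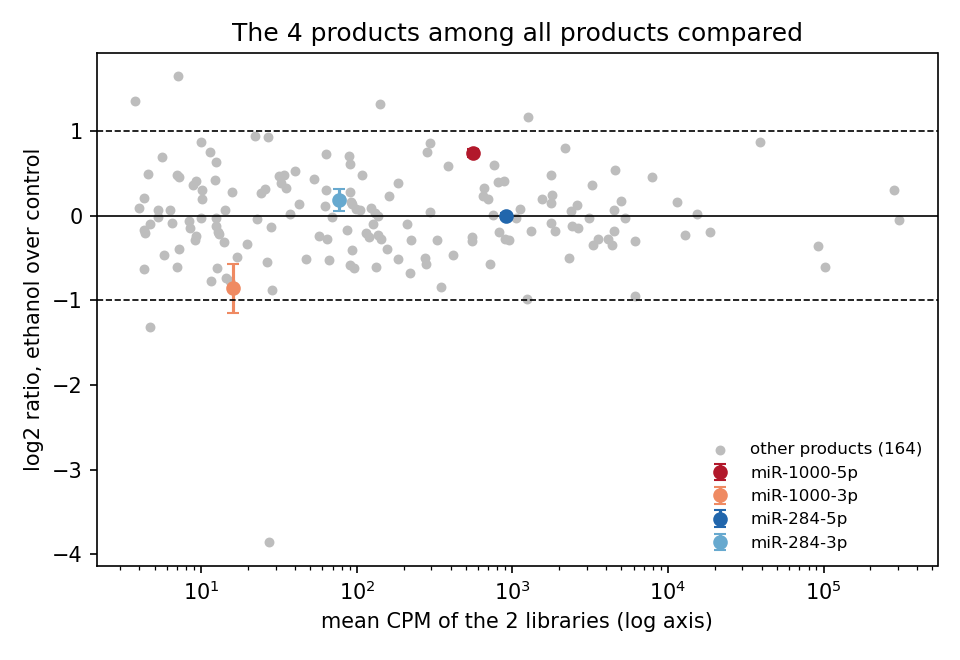
Log2 ratio of ethanol over control (y axis) against the mean CPM of the libraries (x axis, log axis) for the 168 products compared, with the 4 products of mir-1000 and mir-284 in colour and their 95% counting intervals; dashed lines mark 2-fold. miR-1000-5p lies at 0.74 and miR-1000-3p at -0.86, inside the dashed lines, and the miR-284 products near 0.

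Because the 4 products were counted in the same libraries, ratios between them do not depend on the scaling. There were 0.458 reads of miR-1000-5p for each read of miR-284-5p in the control against 0.767 in the ethanol library, a change of 1.67-fold (1.61 to 1.75). Set against miR-284-3p instead, miR-1000-5p went from 5.87 to 8.61, a change of 1.47-fold (1.34 to 1.61). miR-1000-5p was therefore higher in the ethanol library relative to either product of mir-284. miR-1000-3p went from 0.289 to 0.140 reads per read of miR-284-3p, a factor of 0.48 (0.39 to 0.60).

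The arms of mir-1000 differed in opposite directions. The 3p share of the hairpin's reads was 4.70% in the control (exact Clopper-Pearson interval 4.18 to 5.26%) and 1.60% in the ethanol library (1.35 to 1.88%). There were 20.3 reads of miR-1000-5p per read of miR-1000-3p in the control against 61.5 in the ethanol library, a 3.03-fold change of the odds towards 5p (2.47 to 3.73). Summed over both arms, mir-1000 had 438 and 709 CPM, a ratio of 1.62 (1.57 to 1.67), which follows the abundant arm.

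The arm balance of mir-284 was nearly the same in both libraries. Its 3p share was 7.25% in the control (6.81 to 7.70%) and 8.18% in the ethanol library (7.72 to 8.67%), a 1.14-fold change of the odds towards 3p (1.04 to 1.25). The sum of its arms was 983 and 991 CPM, a ratio of 1.01 (0.98 to 1.03).

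Of 61 hairpins with both arms compared, 11 had an arm ratio that differed at least 2-fold (18.0%), mir-1000 among them and mir-284 not. The size of the change was the 4th largest of the 61 for mir-1000 and the 48th for mir-284; the median absolute log2 change was 0.34. Arms on opposite sides of a ratio of 1 were seen in 30 of the 61 (49.2%), and in 17 of these the more abundant arm was the higher one in the ethanol library, as in mir-1000. Nearest to mir-1000 in its change were mir-316 (2.05-fold towards 5p, 1.61 to 2.62) and mir-263a (2.01-fold, 1.73 to 2.35). Of these, mir-316 kept mostly its 3p arm (96.6% and 93.3% of reads) and mir-263a almost wholly its 5p arm (3p share 0.469% and 0.233%). Nearest to mir-284 were mir-970 (1.14-fold towards 3p, 0.96 to 1.36) and mir-315 (1.11-fold, 0.79 to 1.58).

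**Figure D3:**
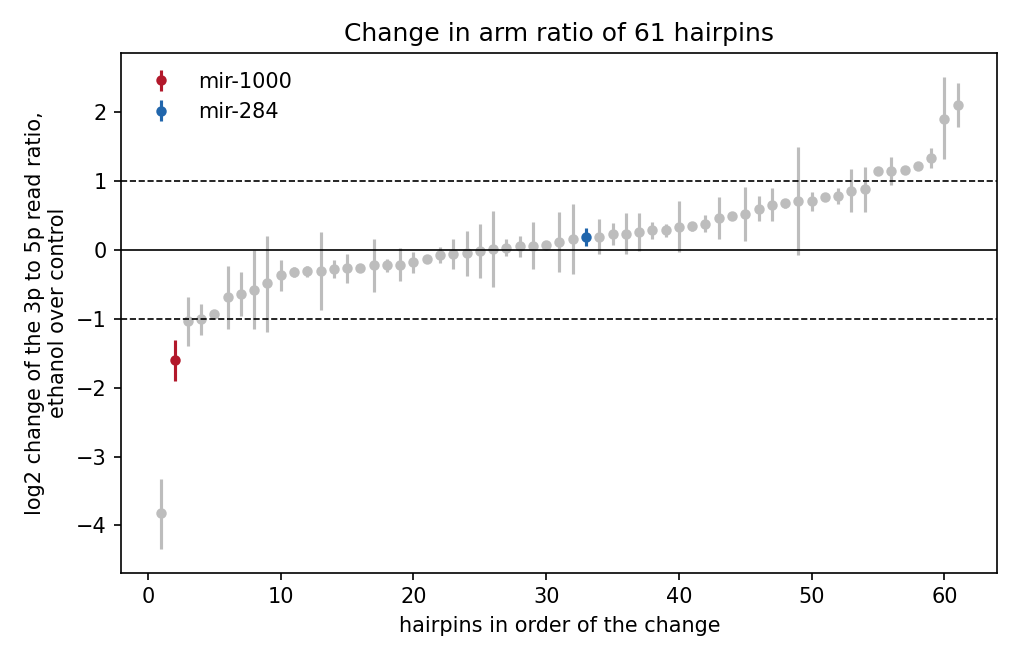
Log2 change of the ratio of 3p to 5p reads between the ethanol and the control library (y axis) for 61 hairpins in order of that change (x axis), with exact 95% counting intervals; dashed lines mark 2-fold. mir-1000 lies at -1.60, the second point from the left, and mir-284 at 0.19, in the middle of the row.

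Base content moved with these values. Guanine made up 19.0% of miR-1000-5p and 36.4% of miR-1000-3p, where 14 of the 168 products had more. In mir-284 it made up 26.9% of the 5p and 20.7% of the 3p product. Across the 168 products, which share the same 2 libraries, the log2 ratio was lower with more guanine (Spearman's rho -0.50, Pearson's r -0.38), and in both hairpins the arm with less guanine had the higher ratio. After a straight-line correction for guanine, the log2 ratio of miR-1000-5p was 0.60 in place of 0.74 and that of miR-1000-3p -0.60 in place of -0.86, and the arm change of mir-1000 was 2.30-fold towards 5p. The ratios of miR-284-5p and miR-284-3p were then 1.03 and 1.06 and the arm change of mir-284 was 1.03-fold towards 3p. The part of guanine content in the results was not tested. The RNA integrity number was 6.80 for the control and 6.40 for the ethanol RNA, and its part was not tested either.

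**Figure D4:**
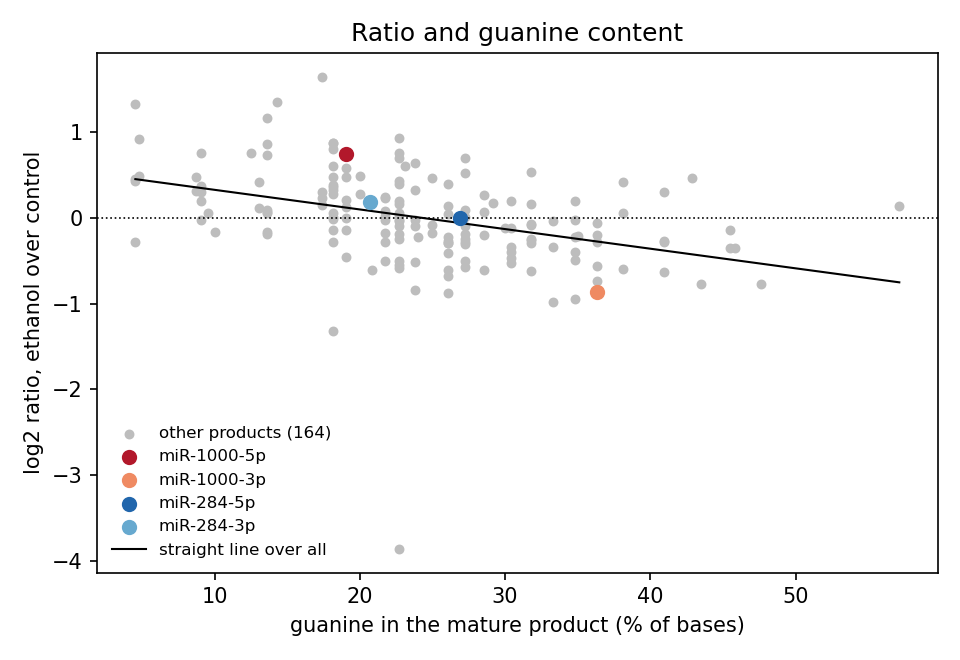
Log2 ratio of ethanol over control (y axis) against the guanine content of the mature product in percent of its bases (x axis) for the 168 products, with the 4 products in colour and the straight line over all 168. miR-1000-5p (19.0% guanine) lies above the line and miR-1000-3p (36.4%) below it, and the miR-284 products lie close to it.

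The products nearest in level over both libraries were found by the distance of their log2 CPM over the 2 libraries. Nearest to miR-1000-5p was miR-927-5p, with 422 CPM in the control and 711 CPM in the ethanol library, a ratio of 1.68 (1.63 to 1.74) and a distance of 0.030. The next were miR-13b-3p at 0.49, with a ratio of 1.26, and miR-9a-5p at 0.51, with a ratio of 1.17, so only miR-927-5p had almost the same pair of levels. Its guanine content was 9.09%, and after the correction its log2 ratio was 0.39.

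Nearest to miR-1000-3p were miR-1003-5p (19.1 and 11.2 CPM, distance 0.11), miR-995-5p (0.21) and miR-275-5p (0.32), with ratios of 0.59, 0.60 and 0.71. Nearest to miR-284-5p were miR-993-3p (0.20), miR-133-3p (0.21) and miR-79-3p (0.26), with ratios from 0.82 to 0.88. Nearest to miR-284-3p was miR-190-3p (74.1 and 84.8 CPM, distance 0.087), ahead of miR-10-5p (0.24) and miR-13a-3p (0.35). With 2 libraries, likeness of levels says little beyond the values themselves.

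A list of 22 hairpins tied to synapses or neurons in the fly included mir-1000 and mir-284. It also held mir-310, mir-311, mir-312 and mir-313, the hairpins of the gonad list above, of whose products 1 was compared (ratio 1.62). The synapse and neuron list had 21 hairpins listed and 32 products compared. Of these, 17 had a ratio above 1 and 15 below, and the counting interval excluded 1 for 14 of the former and 11 of the latter, against 62 above (36.9%) and 64 below (38.1%) of all 168. None reached 2-fold in CPM, but miR-124-3p was 2.04-fold lower under the authors' RPM and 2.10-fold lower without the 4 most abundant products, where miR-124-5p passed 2-fold as well. At least 1.5-fold was reached by 12 of the 32, against 39 of all 168 (23.2%). The median log2 ratio was 0.018, against -0.020 over all 168 products, of which 82 lay above 1 and 86 below. Without the 4 products of mir-1000 and mir-284 the counts were 15 above and 13 below of 28. The member with the most reads, let-7-5p, a developmental timing miRNA kept in the adult brain, was 1.52-fold lower in the ethanol library (123536 and 81419 CPM). The one farthest from 1 was miR-124-3p, with 8113 and 4205 CPM (1.93-fold lower, 1.91 to 1.95). The neuronal marker miR-124 and miR-1000-5p thus differed in opposite directions between the libraries; the part of the share of neuronal RNA in the results was not tested.

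In the authors' deposited table the log2 ratio of RPM (reads per 1000000 of the total read number) was 0.66 for miR-1000-5p (p = 9.26e-166), -0.94 for miR-1000-3p (p = 3.95e-11), -0.085 for miR-284-5p (p = 3.67e-06) and 0.10 for miR-284-3p (p = 0.103). The authors' deposited table marks 14 of its 196 products as different, none of the 4 among them. miR-1000-5p, with the smallest p-value of the 4, was thus unmarked, so a missing mark does not stand for a large p-value. These p-values compare the reads of these libraries, not the treatments.

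Under 6 other settings of the scaling, the counting of repeated names and the guanine correction, miR-1000-5p was 1.52-fold to 1.67-fold higher in the ethanol library and miR-1000-3p 1.52-fold to 1.98-fold lower, so neither changed direction or reached 2-fold. The ratio of miR-284-5p lay between 0.92 and 1.03, on either side of 1. Its interval lay below 1 under the authors' RPM (0.919 to 0.966) and without the 4 most abundant products (0.894 to 0.940). After the guanine correction the ratio was 1.03, and its rescaled counting interval (1.003 to 1.055) leaves out the error of the fitted line. The side of 1 on which the ratio of miR-284-5p lay thus depended on the setting. The ratio of miR-284-3p lay between 1.05 and 1.14. Its interval held 1 under the authors' RPM (0.98 to 1.17), without the 4 most abundant products (0.96 to 1.14) and after the guanine correction (0.97 to 1.16).

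**Figure D5:**
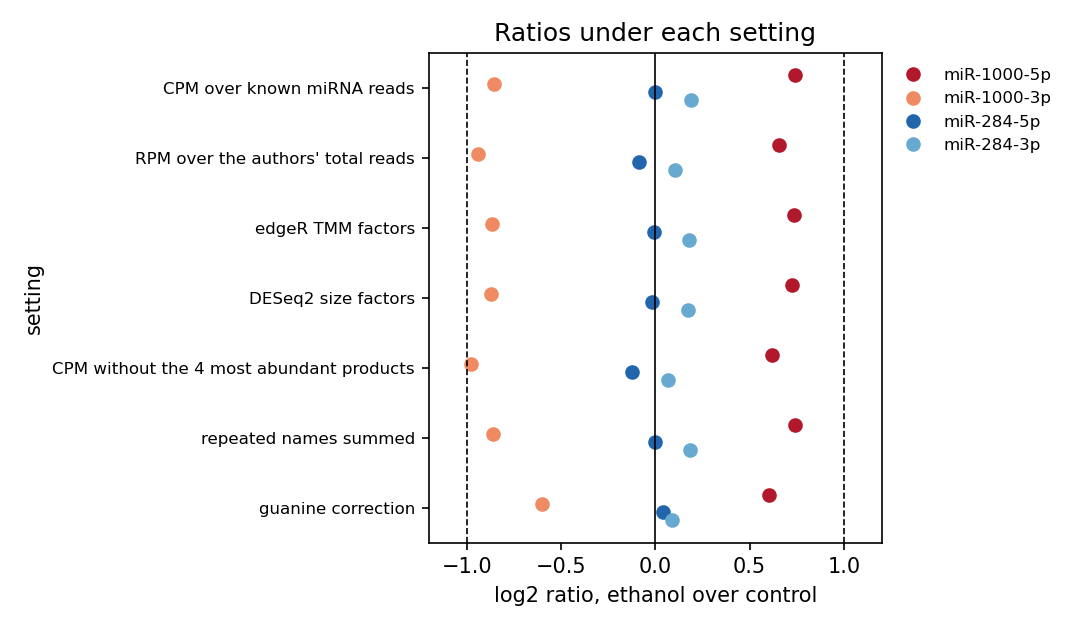
Log2 ratio of ethanol over control (x axis) of the 4 products under the main scaling and 6 other settings (y axis); dashed lines mark 2-fold. miR-1000-5p stays right of 0 and miR-1000-3p left of 0 in all rows, neither passes 2-fold, and miR-284-5p lies between -0.13 and 0.041.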

How the data were processed

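Small RNA of 18 to 30 nt from heads was sequenced in 1 control and 1 ethanol library. The authors deposited counts of reads per mature miRNA, with no product under 5 reads listed; the aligner, the counter and the miRNA release are not stated, and the submitters' processing notes name BDGP5 as genome build. The deposited RPM values are counts per 1000000 of each library's total read number. The authors' deposited table of comparisons holds a log2 ratio of RPM and a p-value from a test that is not stated.

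For names listed more than once (6 per library) the largest count was kept, identical sequences were used once, and counts were scaled to CPM over known miRNA reads. Products listed in both libraries with at least 100 reads over both were compared (168 of 221). Ratios carry exact conditional binomial and arm changes exact conditional odds-ratio 95% intervals. Both were tried only on simulated independent counts, the model they assume, so this does not show their coverage for PCR-amplified reads. No test between groups was run, as edgeR and DESeq2 need replicates; edgeR 4.0.16 TMM and DESeq2 1.42.0 size factors (R 4.3.3) served as alternative scalings. The guanine correction subtracted a straight line of the log2 ratio on the guanine share and kept the median. Intervals given after it are the counting intervals rescaled, without the error of that line. Arm duplexes were predicted with RNAduplex of ViennaRNA 2.7.2, and a candidate counted as overlapping a product if either sequence less 2 bases at each end lay within the other. All else ran in Python 3.11.15 with SciPy 1.17.1, numpy 2.4.6 and pandas 2.3.3. Named were all 4 products, products sharing a seed, the 3 nearest products and 2 nearest hairpins, and from the synapse and neuron list the product with the most reads and the one farthest from 1. Members, lists and rules were chosen with earlier results of these data known.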

Additional observations from a re-analysis of the deposited data

How the results depend on the processing

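With 1 library per group, no replicate could be left out and no library effect could be measured. No paired analysis was possible because each group has 1 library. Under the authors' RPM, without the 4 most abundant products and after the guanine correction, the ratio of miR-1000-5p was 1.58, 1.54 and 1.52 (1.67 in CPM) and that of miR-284-5p 0.94, 0.92 and 1.03 (0.998 in CPM). Leaving out the 4 most abundant products shifted all log2 ratios by -0.12. Guanine correction took the change of the 3p to 5p ratio from 0.33 to 0.43 in mir-1000 and from 1.14 to 1.03 in mir-284, where its interval (0.94 to 1.13) then held 1, and the number of hairpins past 2-fold from 11 to 6. Products at least 2-fold higher numbered 4, but 2 after the guanine correction, 5 with repeated names summed and 7 with a minimum of 10 reads or with none. Products at least 2-fold lower numbered 2, but 3 with DESeq2 size factors, 4 under RPM, 5 without the 4 most abundant products, and 5 with a minimum of 10 reads or with none. A minimum of 10 reads and no minimum hold the same 221 products, because no listed product had under 5 reads, so they are 1 check. TMM, DESeq2 size factors and summed names left all 4 ratios within their counting intervals. The cause was not tested. With 149 ethanol reads, miR-1000-3p had the widest interval of the 4.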
